A study of Rattus norvegicus with 61 samples.

Results

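Trimethylation of lysine 4 of histone H3 (H3K4me3) was compared between islets of growth-restricted and control rats, and the regions described here are the differential H3K4me3 regions that lay more than 20 kb from any transcription start site (TSS) listing them. A listed region entered once, with the shortest of its distances to the genes that list it, and was kept when that distance was over 20000 bp. The rule gave 3310 of 6789 H3K4me3 regions at 2 weeks of age (48.8%, exact 95% binomial interval 47.6% to 49.95%) and 4481 of 17548 at 10 weeks (25.5%, 24.9% to 26.2%), that is 7791 of 24337 at both ages and of the 61324 regions listed for 3 histone marks. All intervals cover counting error over regions or genes only, which are not independent replicates.

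Islets came from Sprague Dawley rats. Intrauterine growth restriction (IUGR) was produced by ligating both uterine arteries of the dams late in gestation, and controls were offspring of dams with sham surgery. The H3K4me3 comparison rests on 2 control and 3 IUGR libraries at 2 weeks and on 3 control and 3 IUGR libraries at 10 weeks, among 34 ChIP and 27 input libraries in all. For H3K27me3 there were 3 control and 2 IUGR libraries at 2 weeks and 3 of each at 10 weeks. For H3K27Ac there were 3 of each at both ages. Each sample pooled islets of pups of a litter, from both sexes at 2 weeks and from males at 10 weeks, so age and sex cannot be told apart. The table used here holds positions and distances of regions that differed between IUGR and control islets, without values per library, so the depth and the spread between replicates are unknown. Its fold change columns are the authors' own comparisons and were not used, so the direction of change is not reported.

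H3K4me3 is laid down by SET1 and MLL methyltransferase complexes and marks the promoters of active and poised genes, where it is bound by factors that help transcription start. Away from annotated promoters it is found at unannotated start sites, at promoters of non-coding RNAs and at some strong enhancers. Acetylation of lysine 27 (H3K27Ac) marks active promoters and enhancers, and trimethylation of the same residue (H3K27me3), the product of Polycomb repressive complex 2, marks silenced genes, many of them developmental regulators.

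The name distal holds for most of these regions and not for all. The table gives each gene its nearest region on either side, so a region behind a nearer one is not listed for that gene. When TSS positions were derived from the listed distances, 182 of the 3310 2-wk regions (5.50%) and 763 of the 4481 10-wk regions (17.0%) had the TSS of another listed gene within 20 kb, 40 and 336 of them within 5 kb. In 181 and 762 of these cases the gene listed a region at least as near to its TSS, which covered the TSS in 43 and 515 cases. Genes missing from the table are a further limit. In an annotation of another rat assembly, 2230 of 2707 2-wk regions whose listed neighbours are adjacent in both sources (82.4%) and 2789 of 3695 10-wk regions (75.5%) had at least 1 unlisted gene between those neighbours. A protein-coding gene was among them for 45.3% and 35.9%, and a long non-coding RNA for 63.6% and 52.7%. Whether a region lies in an exon, an intron or between genes was not analysed here.

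The distances, which chose the regions, are given as a description. At 2 weeks the median distance was 66.5 kb, with the middle of the distribution between 36.4 kb (lower quartile) and 142 kb (upper quartile), and the farthest region lay 5838526 bp from its gene. The 10-wk median was 52.2 kb, the quartiles 31.0 kb and 105 kb, and the maximum 8634825 bp. More regions of the 10-wk set lay close to the 20-kb limit. The number over 100 kb was 1176 at each age, which is 35.5% of the 2-wk and 26.2% of the 10-wk regions, and 61 and 59 regions lay over 1 Mb away. The last 2-wk regions left out were nearest to Slc25a54 (19962 bp), Ptpn1 (19970 bp) and Tgfbr3 (19986 bp), and the first kept were nearest to Sema4c (20032 bp), Paics (20036 bp) and Nup62 (20047 bp). In the 10-wk set the last left out were nearest to Ascc1 (19989 bp), Cox6c-ps1 (19995 bp) and Tnfrsf19 (19999 bp), and the first kept were nearest to Col6a4 (20003 bp), Acrbp (20012 bp) and Phlda3 (20017 bp). The limit thus cuts through a continuous range of distances.

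**Figure D1:**
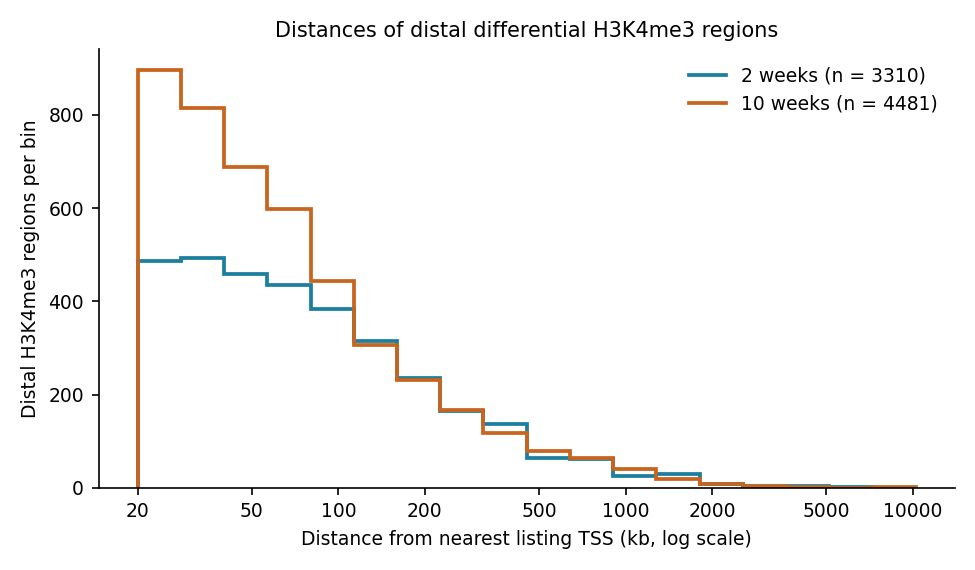
Distal H3K4me3 regions per distance bin (y axis) against the distance to the nearest listing TSS in kb on a log scale (x axis), at 2 weeks (3310 regions) and 10 weeks (4481 regions). The 10-wk set has 896 regions in the bin nearest to 20 kb, and from about 100 kb on both ages have similar numbers.

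Distal regions made up a larger part of the H3K4me3 regions at 2 weeks than of those of H3K27Ac at either age. Their share of 48.8% stood beside 37.8% of the H3K27Ac and 54.1% of the H3K27me3 regions at 2 weeks. At 10 weeks the H3K4me3 share was 25.5%, with 39.6% for H3K27Ac and 44.6% for H3K27me3. The lower 10-wk share of H3K4me3 went with more regions near genes, 13067 within 20 kb against 3479 at 2 weeks, while the number of distal regions was 4481 against 3310.

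Widths could be derived for 64.7% of the 2-wk and 53.4% of the 10-wk distal regions. Of the 2140 2-wk regions for which an end could be derived, the median width was 1100 bp (1000 to 8500 bp), and of 2393 10-wk regions it was 1300 bp (1000 to 4800 bp). Regions within 20 kb had medians of 1100 and 1200 bp. Along the strand of the nearest gene, 1469 of 3304 2-wk distal regions (44.5%, 42.8% to 46.2%) lay upstream of the TSS, against 39.9% of regions within 20 kb. At 10 weeks 2184 of 4476 did (48.8%, 47.3% to 50.3%), against 44.2%. The remaining regions lay on the gene side of the TSS, in the gene or beyond it. The derived TSSs on either side of a distal region were a median of 245 kb apart at 2 weeks and 188 kb at 10 weeks, where regions within 20 kb had 59.0 and 54.9 kb.

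Many of the farthest regions were closer to the derived TSS of another gene than to the gene listing them. At 2 weeks the region farthest from a listing gene was chr2:71793101-71794100 (coordinates of rn6 throughout), 5838526 bp from Basp1, a membrane protein of nerve growth cones. The derived TSS of the cadherin gene Cdh10 lay closer to it, at 2377708 bp. It was followed by a region starting at chr7:88465701, 4442497 bp upstream of Kcnv1, a potassium channel subunit, with the derived TSS of Trps1 at 1852520 bp. The next were a region at chr13:10499201-10501100, 4186325 bp from Cntnap5c, a contactin-associated protein, with Mir3556b closer at 2260200 bp, and a region at chrX:100619101-100620400, 3873314 bp from the protocadherin gene Pcdh19. After a region starting at chr13:19213801, 3818185 bp from the uncharacterized gene LOC304725, came chr16:86846101-86847300, listed 3477897 bp upstream of the bile acid transporter gene Slc10a2, but the derived TSS of Efnb2, an ephrin ligand, was 214951 bp away.

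At 10 weeks the farthest region started at chr13:14947701, 8634825 bp from Cntnap5c, while the nearest derived TSS of any listed gene was 447916 bp away. The next were chr5:93365901-93366900, 5020391 bp upstream of the melanocyte enzyme gene Tyrp1 with Tmem261 closer at 1326756 bp, and a region starting at chr16:46230201, 4996107 bp upstream of Aga, a lysosomal enzyme. The latter had the derived TSS of the teneurin gene Tenm3 at 193668 bp. They were followed by regions nearest to the olfactory receptor gene Olr410 (3414073 bp) and to the cadherin gene Cdh9 (3361513 bp), to which the derived TSSs of Olr411 (1121207 bp) and Cdh6 (383184 bp) were closer. By derived TSS, the most isolated regions were on chromosome X at 2 weeks (3544392 bp, the region of Pcdh19 above) and on chromosome 4 at 10 weeks (2623573 bp). A region starting at chr13:19213801 at 2 weeks and at chr13:19214901 at 10 weeks came next at each age, 2.46 Mb from the derived TSS of Cntnap5b. These regions were chosen after their values were seen.

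Distal regions were found on every chromosome, with the highest numbers on chromosome 1, which held 365 at 2 weeks and 519 at 10 weeks. Chromosome Y aside, the distal share of a chromosome's H3K4me3 regions, by the listed distances, was highest on chromosomes 18 and X at both ages. At 2 weeks it was 59.7% on chromosome 18 (52.4% to 66.7%, of 191 regions) and 59.6% on X (50.1% to 68.7%, of 114). At 10 weeks it was 36.4% on X (31.7% to 41.2%, of 415) and 35.3% on chromosome 18 (30.9% to 40.0%, of 447). The lowest shares at 2 weeks were 36.9% on chromosome 10 (32.7% to 41.2%, of 515) and 38.9% on chromosome 7 (34.6% to 43.4%, of 493). At 10 weeks they were 16.4% on chromosome 20 (13.4% to 19.8%, of 537) and 17.4% on chromosome 10 (15.5% to 19.5%, of 1473). By derived TSS, chromosome X (58.8%) was followed by chromosomes 17 (57.3%) and 18 (57.1%) at 2 weeks. The lowest share by that measure at 10 weeks was on chromosome 10 (12.5%), below chromosome 20 (13.97%). Chromosome Y had 1 region at 2 weeks and 4 at 10 weeks, of which 1 and 3 were distal, and 3 and 1 distal regions lay on unplaced scaffolds or could not be placed. The 2-wk samples held both sexes, and the sex of the cells behind the X and Y regions was not analysed here.

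**Figure D2:**
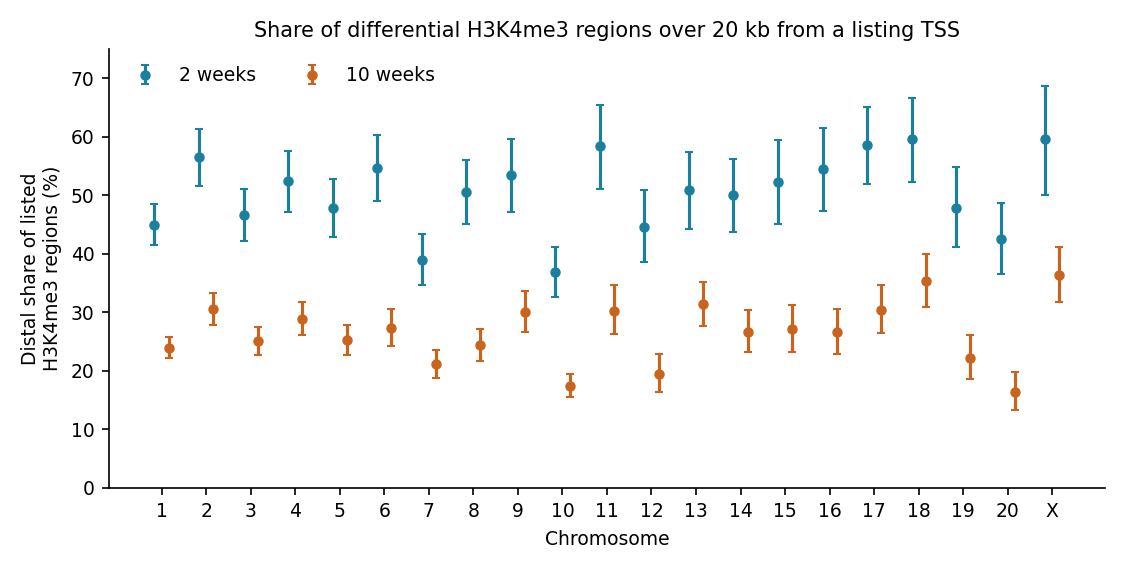
Distal share of the listed H3K4me3 regions in percent (y axis) on each chromosome (x axis), at 2 weeks and 10 weeks. Points are shares and bars exact 95% binomial intervals. Chromosomes 18 and X are highest at both ages and chromosome 10 is among the lowest.

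The nearest genes of the distal regions were spread over much of the genome. At 2 weeks 3044 of the 17411 listed genes (17.5%) were the nearest listed gene of a distal region, and at 10 weeks 3863 (22.2%). By the nearest derived TSS of any listed gene, with regions within 20 kb of it left out, 2607 (15.0%) and 3146 (18.1%) genes were. These are the background for the counts of gene groups by each measure, which were chosen by function and are given without a test. At both ages 1270 genes were nearest to a distal region, 41.7% of the 2-wk and 32.9% of the 10-wk genes. With 1 region on each side at each age, 4 is the most a gene can have, and 52 genes had 4.

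The first 5 of these 52 by symbol were Arl6, Atg7, Bcl11b, Bicc1 and Ccser1. Around Atg7, the E1-like enzyme of autophagy, the 2-wk regions lay 25916 bp upstream (chr4:146571401-146572500) and 150686 bp downstream of the TSS. The 10-wk regions lay 28416 bp upstream (chr4:146569001-146570000) and 28586 bp downstream, each with a 10-wk H3K27Ac region starting 100 and 600 bp from it. The farther 2-wk region had the derived TSS of Vgll4 closer, at 90296 bp. Around Bcl11b, a zinc finger transcription factor, the distances were 228172 and 108730 bp at 2 weeks and 53372 and 46530 bp at 10 weeks, and the 2-wk region at 108730 bp had Setd3 closer by derived TSS, at 55071 bp. Around Bicc1, an RNA-binding protein, they were 168005 and 335297 bp at 2 weeks and 20805 and 20397 bp at 10 weeks. The 2-wk region at 168005 bp lay 17145 bp from the derived TSS of Tfam, and is thus not distal by that measure, and the other lay 209220 bp from that of Phyhipl. Around Arl6, a small GTPase of primary cilia, downstream regions were listed at 50460 bp (2 weeks) and 49060 bp (10 weeks), with starts 1400 bp apart. Its upstream regions lay 3295242 bp (2 weeks) and 30342 bp (10 weeks) away, and the first had Hmgn1 closer by derived TSS, at 79694 bp. Around Ccser1 the upstream regions lay 138541 bp (2 weeks) and 145641 bp (10 weeks) away, with starts 7500 bp apart, and the downstream ones 239861 and 152261 bp.

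Among the 20 genes of islet hormones and the secretory granule, 4 were nearest to a distal region at 2 weeks and 7 at 10 weeks, beside the 17.5% and 22.2% of all genes, and by derived TSSs the counts were 5 and 8. The insulin genes differed between ages. Ins1, which encodes insulin 1, had a 2-wk region 67684 bp upstream of its TSS (chr1:272730501-272732100) and another 672718 bp downstream, to which Xpnpep1 was closer (285746 bp). The first overlapped a 10-wk H3K27me3 region (chr1:272730301-272731900), and the second started 100 bp from a 10-wk H3K27Ac region. The 10-wk regions of Ins1 lay 999584 bp upstream and 577918 bp downstream, with other genes closer to both. Ins2, which encodes insulin 2, had a 10-wk distal region starting at chr1:215891801, 33768 bp upstream, and no nearer H3K4me3 region on either side at that age, while its nearest 2-wk region was 834 bp from the TSS. At Chga, chromogranin A, distal regions lay 28326 bp upstream at 2 weeks (chr6:126404901-126405900) and 37126 bp upstream at 10 weeks (chr6:126396001-126397100). A 10-wk H3K27me3 region started 200 bp from the 2-wk region. Regions on the other side of the Chga TSS were nearer, 676 and 4876 bp away. Pcsk2, a proinsulin and proglucagon convertase, had 10-wk regions 49291 bp upstream and 26311 bp downstream, and a 2-wk region at 2611 bp.

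The other genes of this group were nearest to a distal region at a single age. At 2 weeks these were Cpe, the carboxypeptidase that trims prohormones (114586 bp), and Ptprn2, a granule membrane protein (37129 bp). At 10 weeks they were Chgb, chromogranin B (53260 bp), Scg2, secretogranin II (114260 bp), and Ghrl, which encodes ghrelin (21166 bp). Chgb and Scg2 also had nearer 10-wk regions, at 742 and 1342 bp. The region of Ghrl lay 2200 bp from the derived TSS of Tatdn2 and that of Scg2 88838 bp from the derived TSS of Ap1s3, so both are closer to another gene.

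Of 18 genes of glucose sensing and insulin secretion listed, 6 were nearest to a distal region at 2 weeks (33.3%, 13.3% to 59.0%) and 1 at 10 weeks (5.56%, 0.141% to 27.3%). The shares of all genes were 17.5% and 22.2%, within these intervals. The same 18 genes were counted at both ages, so the intervals do not test the difference between ages. By derived TSSs of all genes, the counts were 6 and 2, beside 15.0% and 18.1% of all genes. Slc2a2, the glucose transporter of rodent beta cells, had a region at chr2:114525601-114528900, 112016 bp downstream of its TSS, and no nearer H3K4me3 region at 2 weeks. It overlapped a 2-wk H3K27Ac region (chr2:114527801-114529100), a 10-wk H3K27Ac region (chr2:114528101-114529100) and a 2-wk H3K27me3 region (chr2:114526601-114527900). The 10-wk H3K4me3 region of Slc2a2 covered the TSS. The calcium channel genes Cacna1c and Cacna1d had 2-wk regions at 281959 and 37957 bp downstream and Syt7, a calcium sensor of exocytosis, at 25779 bp upstream, besides a nearer one at 6823 bp. Adcy5, an adenylyl cyclase, had 2-wk regions 30420 bp downstream and 93682 bp upstream, the latter starting 400 bp from a 10-wk H3K27Ac region, and a 10-wk region 141582 bp upstream besides one at 320 bp.

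A gene's nearest region can be distal to it and near to another gene, so the same groups were counted by their own nearest H3K4me3 region. Over all genes, the nearest region lay over 20 kb from the TSS for 74.3% at 2 weeks and 27.2% at 10 weeks. It did for 9 of 18 glucose sensing genes at 2 weeks and for 0 at 10 weeks, when 14 of them had a region within 5 kb beside 9988 of 17409 genes (57.4%). Among the islet hormone and granule genes it was over 20 kb away for 9 of 20 at 2 weeks and for 7 at 10 weeks. The 10-wk genes were Ghrl (21166 bp), Ptprn (24841 bp), Pcsk2 (26311 bp), Ins2 (33768 bp), Iapp (78082 bp), Sst (88472 bp) and Ins1 (577918 bp). Ptprn encodes the granule protein IA-2, Iapp amylin and Sst somatostatin. Of these, Ins2, Pcsk2, Sst, Ghrl and Ins1 had a nearer region at 2 weeks, at 834, 2611, 6772, 17936 and 67684 bp, and Iapp and Ptprn a farther one, at 106382 and 121661 bp. These 7 genes were picked by their 10-wk distance. In the whole group the nearest region was nearer at 2 than at 10 weeks for 11 of 20 genes, beside 2025 of 17405 genes (11.6%). The median distance of the group was 12.4 kb at 2 weeks and 4.31 kb at 10 weeks, and that of all genes 65.6 and 2.07 kb.

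**Figure D3:**
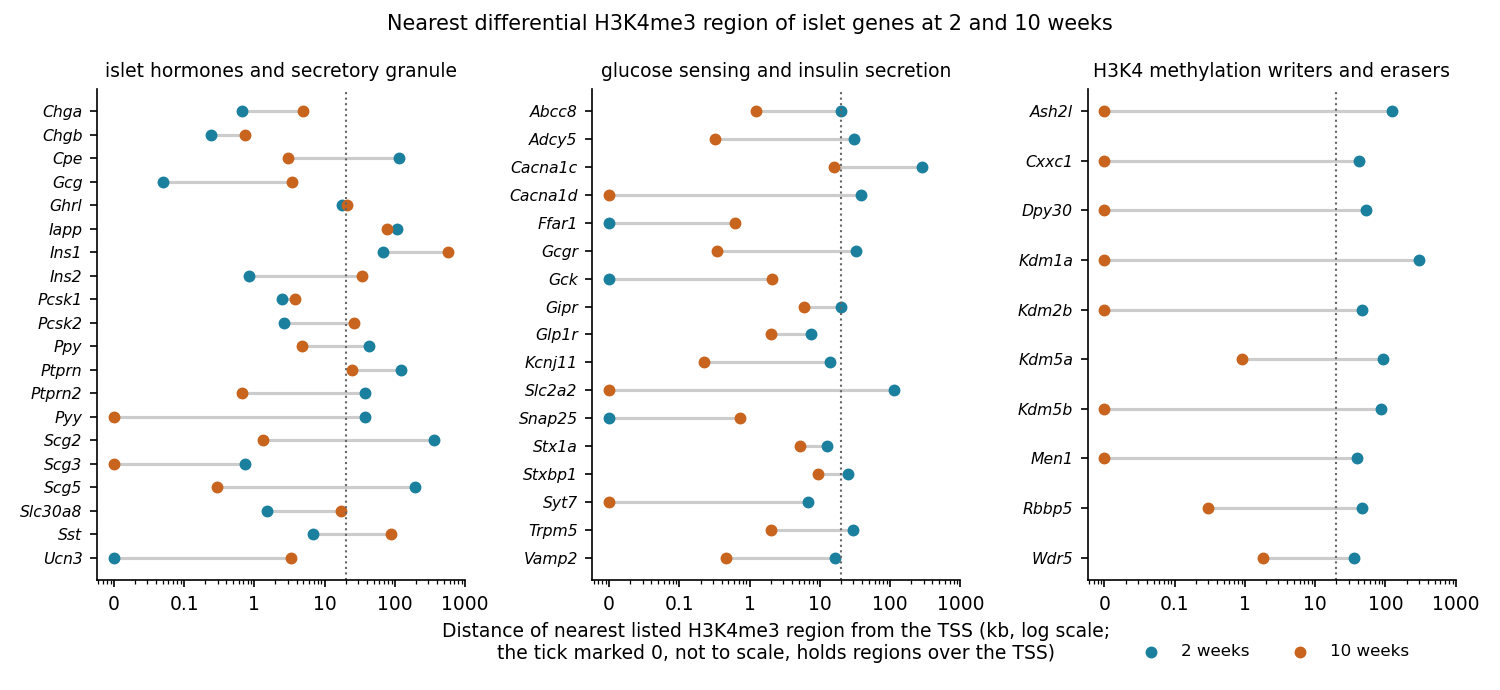
Distance of the nearest listed H3K4me3 region from the TSS in kb (x axis, log scale, with a separate tick for regions over the TSS) for genes of 3 groups (y axis), at 2 and 10 weeks. The dotted line is at 20 kb. All 10 genes of H3K4 methylation lie right of it at 2 weeks and left of it at 10 weeks, and Ins1 lies right of it at both ages.

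Of the 17 genes of the H3K4 methylation machinery counted as a group 10 are in the table, and none of these was the nearest gene of a distal region at either age. The shares of all genes by this measure, 17.5% and 22.2%, lie within the interval for 0 of 10 (0% to 30.8%). For 10 of 10 the nearest 2-wk H3K4me3 region lay over 20 kb away, beside 74.3% of all genes, from 35393 bp at Wdr5 to 297831 bp at Kdm1a, with 122961 bp at Ash2l, 91088 bp at Kdm5a and 86696 bp at Kdm5b. At 10 weeks 10 of 10 had a region within 5 kb, beside 9988 of 17409 genes, and it covered the TSS of 7, among them the demethylase genes Kdm1a, Kdm2b and Kdm5b and the complex members Ash2l, Cxxc1, Dpy30 and Men1. Over all genes a 10-wk region covered the TSS of 5128 of 17409. Wdr5 and Rbbp5 are core subunits of the methyltransferase complexes, and their 10-wk regions were 1809 and 301 bp away.

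Transcription factor genes of the islet and pancreas were nearest to a distal region in 13 of 28 cases (46.4%) at 2 weeks and in 12 of 28 (42.9%) at 10 weeks, beside 17.5% and 22.2% of all genes. By derived TSSs the counts were 14 and 12, beside 15.0% and 18.1%. Irx1, Nkx2-2, Pou3f4, Prox1, Ptf1a and Sox9 were among them at both ages, although the regions of Pou3f4 had other genes closer by derived TSS. Prox1 had regions 65462 bp (chr13:108315901-108317200, 2 weeks) and 49962 bp (chr13:108331501-108332700, 10 weeks) upstream, and the first overlapped a 10-wk H3K27Ac region. Sox9, a factor of duct and progenitor cells, had upstream regions at 73928 bp (chr10:101213501-101214600, 2 weeks) and 55028 bp (chr10:101232201-101233500, 10 weeks), 18700 bp apart. The first overlapped a 2-wk H3K27Ac region and the second a 10-wk H3K27me3 region.

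Nkx2-2, which maintains beta cell identity, had a 2-wk region 361170 bp downstream and a 10-wk region 39432 bp upstream. Ptf1a, a factor of acinar and early pancreatic cells, had a 2-wk region 209379 bp downstream and 10-wk regions 34523 bp upstream and 98679 bp downstream. Irx1 had 10-wk regions 244912 bp upstream and 29990 bp downstream, and a 2-wk region listed 1339590 bp away that was nearer to Med10. Those of a single age included, at 2 weeks, Pdx1, the master regulator of pancreas and beta cells (36191 bp upstream), Foxa2 (50312 bp downstream), Gata6 (25381 bp downstream) and Myt1 (27253 bp upstream). Pdx1 also had a nearer 2-wk region at 3511 bp, and Nkx2-2 at 6132 bp. At 10 weeks they included Nkx6-1, a beta cell identity factor (26364 bp upstream), Foxa1 (163469 bp downstream), Irx2 (131107 bp downstream), Onecut1 (60772 bp downstream) and St18 (87773 bp upstream). Onecut1 had Fam214a closer by derived TSS, at 36818 bp. Other 10-wk regions lay nearer to the TSS of St18 (429 bp), Nkx2-2 (1470 bp), Sox9 (2074 bp), Nkx6-1 (2338 bp), Prox1 (3640 bp) and Onecut1 (5530 bp) than their distal ones. By their own nearest region, 15 of the 28 factors were over 20 kb away at 2 weeks (53.6%, beside 74.3% of all genes) and 6 at 10 weeks (21.4%, beside 27.2%).

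Cadherins, contactins and axon guidance genes were counted in the same way, without a test. At 2 weeks 23 of 44 (52.3%) were nearest to a distal region, and at 10 weeks 30 of 44 (68.2%). The shares of all genes were 17.5% and 22.2%. By derived TSSs of all genes, the counts were 20 and 27, beside 15.0% and 18.1%. Sema3a, Robo1, Dcc and Cdh2 were among those at both ages. The own nearest region of Cdh2, N-cadherin, lay 42925 bp away at 2 weeks and 42525 bp at 10 weeks, and that of the netrin receptor gene Dcc 270001 and 416801 bp. Olfactory, vomeronasal and taste receptor genes were nearest in 60 of 1422 cases (4.22%) at 2 weeks and 127 (8.93%) at 10 weeks. By derived TSSs their counts were 50 and 72.

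Markers of other cells that an islet preparation can hold were also counted, and their part in the results was not tested. Endothelial markers were nearest to a distal region in 4 of 12 genes at 2 weeks (Emcn, Erg, Kdr and Pecam1) and 6 of 12 at 10 weeks. The counts were 2 and 5 of 15 for immune markers, 3 and 6 of 14 for mesenchymal markers, 1 and 4 of 14 for acinar markers, 3 and 3 of 8 for ductal markers, and 2 and 3 of 12 for neural and glial markers. By derived TSSs they were 3 and 4 for endothelial, 2 and 3 for immune, 2 and 5 for mesenchymal, 2 and 3 for acinar, 3 and 1 for ductal, and 2 and 3 for neural and glial markers. Over all genes the shares were 17.5% at 2 weeks and 22.2% at 10 weeks, and 15.0% and 18.1% by derived TSSs. With groups of this size the intervals are wide, for example 9.92% to 65.1% for the 2-wk endothelial share of 33.3%. Expression was not measured in these libraries, so the labelled tissue could not be checked by levels of its markers. Among the 454 microRNA genes listed, 52 (11.5%) were nearest to a distal region at 2 weeks and 100 (22.03%) at 10 weeks. All genes had 17.5% and 22.2%, so the 10-wk share was close to that of all genes.

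**Figure D4:**
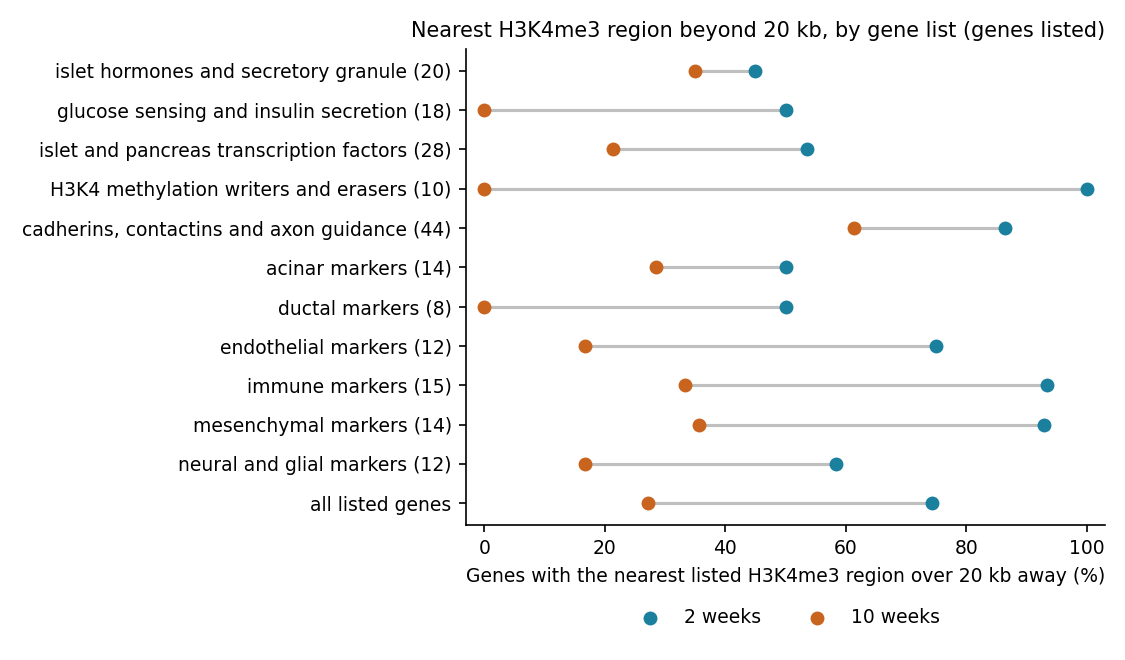
Share of genes whose nearest listed H3K4me3 region lay over 20 kb from the TSS, in percent (x axis), for 11 gene groups and for all listed genes (y axis, number of genes listed in parentheses), at 2 and 10 weeks. The share was lower at 10 weeks in each group shown, and cadherins, contactins and axon guidance genes had the highest 10-wk share (61.4%).

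The share of distal regions that recurred at the other age depended on the search width. At 2 and 10 weeks it was 27.6% and 18.99% with starts within 20000 bp. By overlap, among regions with a derived end, it was 6.45% and 6.23%. A 10-wk H3K4me3 region of any kind started within 5 kb of 432 of the 3310 2-wk distal regions (13.1%, 11.9% to 14.2%), and a 2-wk region within 5 kb of 451 of the 4481 10-wk distal regions (10.1%, 9.20% to 10.98%). For H3K4me3 regions within 20 kb of a gene the shares were 54.1% (52.5% to 55.8%) at 2 weeks and 15.5% (14.9% to 16.1%) at 10 weeks. The number of regions that can be met differs, since the 10-wk set near genes is larger. Among distal regions alone, 361 2-wk regions (10.9%) had a distal 10-wk region within 5 kb, and 31 had one with the same start. At 2 weeks the share was lower farther from genes. Of the 2-wk regions 20 to 50 kb away it was 18.6%, then 12.2% up to 100 kb, 8.39% up to 200 kb, 7.83% up to 500 kb, and 4.32% for the 185 regions farther than that. The 10-wk shares in the same classes did not fall at each step, with 11.4%, 9.50%, 9.78%, 7.85% and 3.66%.

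Among pairs that were distal at both ages, the one farthest from a listing gene was that on chromosome 13 described above, listed for LOC304725 at 2 weeks (3818185 bp) and for Cntnap5b at 10 weeks (2461712 bp), with starts 1100 bp apart. The next lay on chromosome 2. The 2-wk region, chr2:128829301-128830300, was 1827902 bp from Pabpc4l, a poly(A)-binding protein gene, and the 10-wk region started 4200 bp below it, with the derived TSS of another listed gene at 149288 bp. The pair after it was listed for Mir193b, 674631 bp (chr14:29655501-29656500, 2 weeks) and 674531 bp (chr14:29654501-29656600, 10 weeks) downstream. The table and the other assembly place that microRNA on different chromosomes. Downstream of Sema3a, a secreted axon repellent, the 2-wk region chr4:17826301-17828500 (566665 bp) and the 10-wk region chr4:17827501-17828700 (566465 bp) overlapped each other. Both overlapped a 2-wk H3K27Ac region (chr4:17825201-17829900) and a 10-wk H3K27Ac region (chr4:17826001-17828600), so all 4 were listed at 1 place, and Sema3e had its derived TSS closer to it, at 231704 bp. Near Rergl the 2-wk region chr4:173092001-173093700 was 547002 bp away and the 10-wk region started 200 bp from it, with Igbp1b closer to the 2-wk region by derived TSS, at 382278 bp. Upstream of Dnajc24, the regions lay 495491 bp (2 weeks) and 493291 bp (10 weeks) away and started 2200 bp apart, with a 2-wk H3K27Ac region starting 300 bp from the second.

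The share of distal regions with a listed same-age H3K27Ac region also depended on the search width. At 2 and 10 weeks it was 29.5% and 27.8% with starts within 20000 bp. By overlap, among regions with a derived end, it was 6.68% and 6.23%. A same-age H3K27Ac region started within 5 kb of 493 of the 2-wk distal regions (14.9%, 13.7% to 16.2%) and of 665 of the 10-wk distal regions (14.8%, 13.8% to 15.9%). For H3K4me3 regions within 20 kb of a gene the shares were 32.8% (31.2% to 34.4%) and 29.4% (28.6% to 30.2%), and the intervals do not overlap those of the distal regions. These classes are not listed alike, since an H3K27Ac region beside a distal region can go unlisted where another lies nearer the TSS. On TSS sides with H3K4me3 over 20 kb away, H3K27Ac lay nearer in 68.3% at 2 weeks and 29.0% at 10 weeks. With H3K4me3 at 20 kb or less it did in 30.5% and 8.86%. The sides were split by the H3K4me3 distance itself, so a higher share on the far sides was fixed by the split. These values count TSS sides and not regions, and do not measure how many neighbours went unlisted. How far the listing lowered the distal shares was not tested. By distance, the 2-wk share was 16.6% at 20 to 50 kb (14.6% to 18.8%) and 12.97% over 500 kb (8.49% to 18.7%), with overlapping intervals. The 10-wk share was 17.5% (15.9% to 19.2%) and 5.76% (2.91% to 10.1%), with intervals apart. H3K27Ac of either age was found beside 28.5% of the 2-wk and 22.3% of the 10-wk regions, and of both ages beside 3.81% and 3.55%. An H3K4me3 region of the other age and a same-age H3K27Ac region together were found at 81 and 129 regions (2.45% and 2.88%).

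H3K27me3 of the same age lay within 5 kb of 10.1% of the 2-wk distal regions (9.11% to 11.2%), beside 10.8% (9.77% to 11.9%) of regions within 20 kb. The 10-wk shares were 10.8% (9.86% to 11.7%) and 18.6% (17.9% to 19.3%). Same-age H3K27Ac and H3K27me3 were both found near 97 2-wk and 77 10-wk distal regions (2.93% and 1.72%). Neither mark at either age, nor H3K4me3 of the other age, was listed within 5 kb of 1754 (53.0%) and 2801 (62.5%). The table lists only the regions next to a gene on either side, so for the H3K4me3 regions listed here the shares with a neighbouring region are lower limits. The shortfall can be larger for distal regions, so shares of distal and near regions, or of distance classes, are not compared like for like. On TSS sides with H3K4me3 over 20 kb away, H3K27me3 lay nearer in 46.3% at 2 weeks and 54.2% at 10 weeks. With H3K4me3 at 20 kb or less it did in 8.97% and 10.4%. Here too the split by H3K4me3 distance fixed the direction of the difference.

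**Figure D5:**
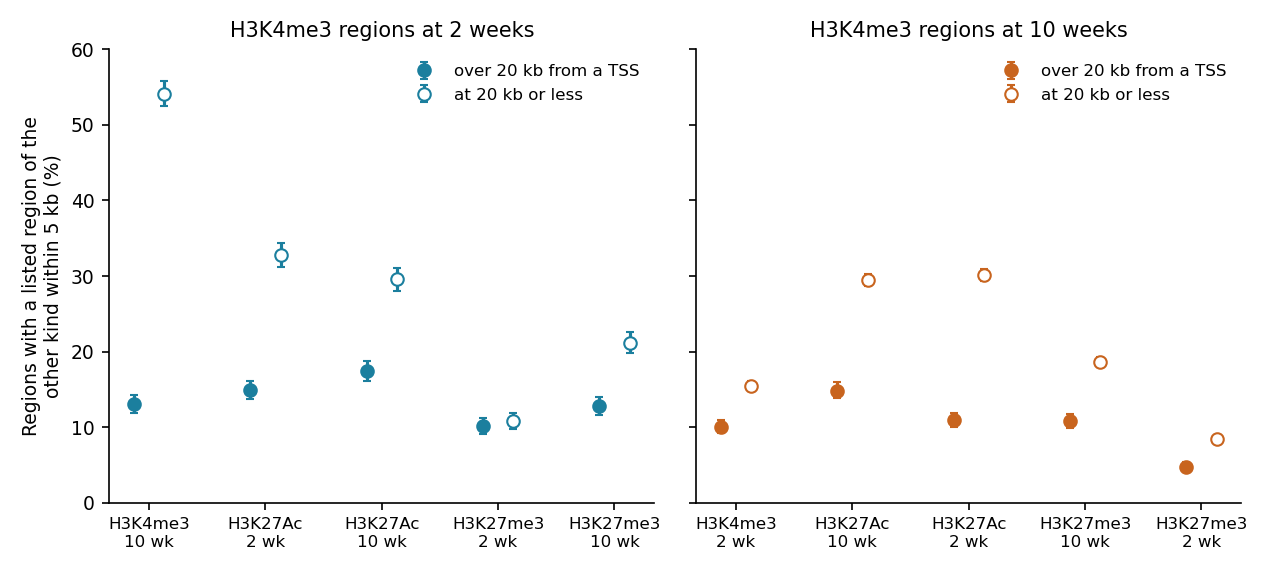
Share of H3K4me3 regions with a listed region of another mark or age within 5 kb, in percent (y axis), for regions over 20 kb from a TSS (filled) and at 20 kb or less (open), at 2 weeks (left) and 10 weeks (right). The x axis names the other mark and its age, and bars are exact 95% binomial intervals. Distal regions have the lower shares throughout, with overlapping intervals for 2-wk H3K27me3 at 2 weeks. A neighbour of a distal region can go unlisted more often, so filled and open points are not compared like for like.

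The 2-wk distal region with H3K27Ac that lay farthest from a listing gene was chr1:118461801-118463100, 2730135 bp downstream of Mir344b-1, with an H3K27Ac region at the same start (chr1:118461801-118462900). The derived TSS of Ube3a, a ubiquitin ligase gene, was 1873987 bp away. Next came chr12:34743401-34744400, 1653833 bp downstream of Tmem132b, a region starting at chrX:132955401, listed for Dcaf12 (on another chromosome in the other assembly) with Actrt1 closer (272298 bp), chr6:17365201-17366300, 1455522 bp upstream of Mtm1, and a region starting at chr8:110800801. The latter was listed 1224449 bp from Ppp2r3a but lay 12199 bp from the derived TSS of the ephrin receptor gene Ephb1, and is thus not distal by that measure. A 2-wk H3K27me3 region started 800 bp from the region of Dcaf12, and another (chr6:17363501-17366900) overlapped that of Mtm1. Near the region of Ppp2r3a, the 2-wk H3K27Ac and H3K27me3 regions had the same coordinates (chr8:110804101-110806100). The regions of Mir344b-1 and Tmem132b had no listed H3K27me3 region within 5 kb.

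At 10 weeks the farthest with H3K27Ac was the region of Cntnap5c at chr13:14947701, which had a 10-wk H3K27Ac region at chr13:14947601-14948700 and a 2-wk one at chr13:14947301-14948800. The others were chr15:55548501-55549600, 1116552 bp upstream of the serotonin receptor gene Htr2a, chr1:155425201-155426500, 835720 bp upstream of Tmem126b, chr3:43241201-43242600, 783364 bp upstream of Galnt5, and a region starting at chr14:73736501, 766167 bp upstream of Pp2d1. The derived TSS of Sucla2, a mitochondrial enzyme, was 86807 bp from the first of these, and that of Dlg2 277398 bp from the second. The region of Galnt5 lay 17275 bp from the derived TSS of Gpd2, the mitochondrial glycerol-3-phosphate dehydrogenase, and Rab28 was closer than Pp2d1, at 152836 bp. The other assembly places Pp2d1 on another chromosome.

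Seen from the genes, the share of flanks with another mark nearby differed between ages, whether or not H3K4me3 was near. A flank is the side of a gene's TSS, with its nearest region of each mark. Of the 29394 2-wk flanks with the nearest H3K4me3 region over 20 kb away, 25.1% had an H3K27Ac region within 20 kb, and of 13795 at 10 weeks 12.4% did. The shares for H3K27me3 were 9.29% and 25.6%. On flanks with H3K4me3 at 20 kb or less, H3K27Ac was within 20 kb in 49.2% and 38.5%, and H3K27me3 in 18.6% and 27.6%. The age differences thus had the same direction in both classes and are not particular to distal flanks. More H3K27me3 regions were listed at 10 weeks, 11877 against 5086. The near class for H3K27Ac grew from 5340 to 20937 flanks, so the classes hold different flanks at each age. A fall within each class is not a fall over all flanks, whose share was not computed here. The nearest H3K27Ac and H3K4me3 regions of a distal flank started within 5 kb of each other in 8.36% at 2 weeks and 11.7% at 10 weeks.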

How the data were processed

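Islets of 2- and 10-wk IUGR and control rats were used for ChIP-Seq of H3K4me3, H3K27Ac and H3K27me3. According to the methods, the authors trimmed reads with Trimmomatic, mapped them to rn6 with STAR (the processing notes in the labels name Bowtie2, Trimmomatic 0.32, SAMtools 0.1.19 and MACS2 2.1.0), filtered out reads without a unique nuclear position, and called differential regions with diffReps, whose window, test, cut-off and normalization are not given in the sources used here. The authors' deposited table gives, for 17411 genes and each mark and age, the closest differential region below and above the TSS and its distance in bp. The 6 columns of log2 fold changes are the authors' own comparisons and were not used.

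Region names join chromosome and start without a separator. Of 60348 names, 48843 had 1 reading, 11290 were placed by the chromosome of their genes in RefSeq (GRCr8, used for names and gene order only), 118 by other regions of those genes and 13 not at all, and 84 lay on scaffolds. For 11 the genes pointed to both readings. RefSeq held 15092 genes by symbol and 1892 by synonym, and the nearest gene of 34 2-wk and 53 10-wk distal regions lay on another chromosome there. TSSs and region ends were derived from starts and distances, and strands from the sign of distances (94.7% of 11891 genes equal to RefSeq). Near means starts within 5000 bp. Shares have exact Clopper-Pearson 95% intervals, with no test between groups because no value per library was used. Python 3.11.15, pandas 2.3.3, NumPy 2.4.6, SciPy 1.17.1 and Matplotlib 3.10.9 were used, and the steps were tested on simulated data.

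Named genes are those of the 5 farthest regions per age, the 5 farthest among pairs distal at both ages (ranked by 2-wk distance) and the 5 farthest with same-age H3K27Ac, the first 5 genes with most regions, those beside the 20000 bp limit, and genes of 4 islet and H3K4 lists. Genes named LOC, RGD or AABR were passed over in this rule, except beside the limit, and LOC304725 was named after its values were seen. In the cadherin and other-cell lists, example genes were named after their values were seen. The regions and the 12 gene lists were chosen with earlier results of these data known. Alternatives were limits of 10000 and 50000 bp, starts within 1000 and 20000 bp, overlap of 1 bp, genes named LOC, RGD or AABR left out and, added after seeing the data, distances to the nearest derived TSS of any listed gene. Reads, input libraries and region sequences were not analysed here, and some genes of the lists, though counted, are not reported here by name.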

Additional observations from a re-analysis of the deposited data

How the results depend on the processing

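The 6 main counts and shares were recomputed under 32 alternatives, of which 12 stayed within 1.5 times the count or within the interval of the share. A minimum distance of 50000 bp left 2027 distal regions at 2 weeks and 2323 at 10 weeks, while 10000 bp gave 4141 and 6132, genes named LOC, RGD or AABR left out 3313 and 4377, and distances to the nearest derived TSS of any listed gene (added after seeing the data) 3127 and 3717. The distal share of all H3K4me3 regions was higher at 2 weeks than at 10 weeks under each of these 4. The share with H3K4me3 of the other age at 2 weeks was 15.4% with a minimum of 10000 bp, 9.52% with 50000 bp and 11.5% by derived TSS. At 10 weeks it was 8.82% with 50000 bp. With starts within 1000 bp it was 7.76% and 5.91% at 2 and 10 weeks, within 20000 bp 27.6% and 18.99%, and by overlap, among regions with a derived end, 6.45% and 6.23%. The share with same-age H3K27Ac was 7.16% and 7.34% within 1000 bp, 29.5% and 27.8% within 20000 bp and 6.68% and 6.23% by overlap. At 10 weeks it was 12.4% with a minimum of 50000 bp and 12.8% by derived TSS. Apart from the width of the search, the cause of these shifts was not tested.

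No paired analysis was possible because the deposited table holds no value per library, so no replicate was left out either. Depth per library is unknown.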
